A study of Drosophila melanogaster with 8 samples.

Results

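The RNAs described here are roX1, roX2 and Dup99B of Drosophila melanogaster, 3 genes whose transcripts are made mainly or only in males. They were chosen by accession: every array probe listed under NR_002098 (roX1), NR_002105 (roX2) or NM_206582 (Dup99B) was taken, which gave 3 probes for roX1, 1 for roX2 and 1 for Dup99B, or 5 of the 32162 fly probes on the array. Each probe is printed as 2 spots. The array holds 1 further probe for roX1 and 1 for roX2 under other accessions of the same genes (NR_002097 and NR_002104), and these are used below as a second reading of each RNA.

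The mutant flies had the genotype w1118;darkcd4, and the control flies were w1118, so both groups carried the w1118 eye-colour mutation. The protein made by dark is the fly form of Apaf-1, which activates caspases, and the series title describes the mutant as deficient in apoptosis. The mutant allele had been backcrossed to w1118 for 6 generations. Each genotype had 4 samples, and each sample was total RNA from the whole bodies of 5 flies at day 5 of adult life that had been free to mate. The labels give no sex, and nothing in them tells whether samples were separate cultures, so the p-values below measure only the spread between these samples, which may be technical. Each sample was hybridised to 1 single-colour Agilent array.

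The roX RNAs are long noncoding RNAs of the fly's dosage compensation machinery. With the MSL proteins they form a complex that coats the single X chromosome of males, acetylates histone H4 and raises transcription there, and either RNA can stand in for much of the function of the other. They are scarce or absent in adult females. Dup99B encodes a secreted peptide of the male ejaculatory duct, related to sex peptide, that is passed to females in semen and contributes to their response to mating.

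On each array 70.3% to 78.0% of spots other than controls read well above background, and pairs of arrays correlated at 0.949 to 0.994 across the 24647 probes tested (across probes, which are not independent). The array's 75th percentile of the processed signal, the value by which levels were scaled, was 253.9, 366.5, 515.7 and 369.8 on darkcd4 1 to 4 and 456.5, 553.1, 472.3 and 488.5 on w1118 1 to 4. All levels below are log2 of the processed signal minus the log2 of this percentile. All 8 arrays lie on 1 slide: replicates 1 and 2 of both genotypes are in row 1 of the slide and replicates 3 and 4 in row 2. All w1118 arrays are in columns 1 and 2 of the slide, and all darkcd4 arrays are in columns 3 and 4. A difference between genotypes therefore cannot be told apart from a difference between these columns. With 8 arrays, their number sets how precise the values can be.

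All 7 probes of roX1, roX2 and Dup99B were well above background on all 8 arrays, with no saturated spot and no outlier spot. The 2 spots of a probe differed by at most 0.167 on the log2 scale on any array. Steps between arrays smaller than this are within the spread of spots and carry no order. Transcripts of the male dosage compensation system and of the male duct were thus read in all 8 samples. In whole-body RNA, fewer males in a sample and less of the RNA per male cannot be told apart.

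**Figure D1:**
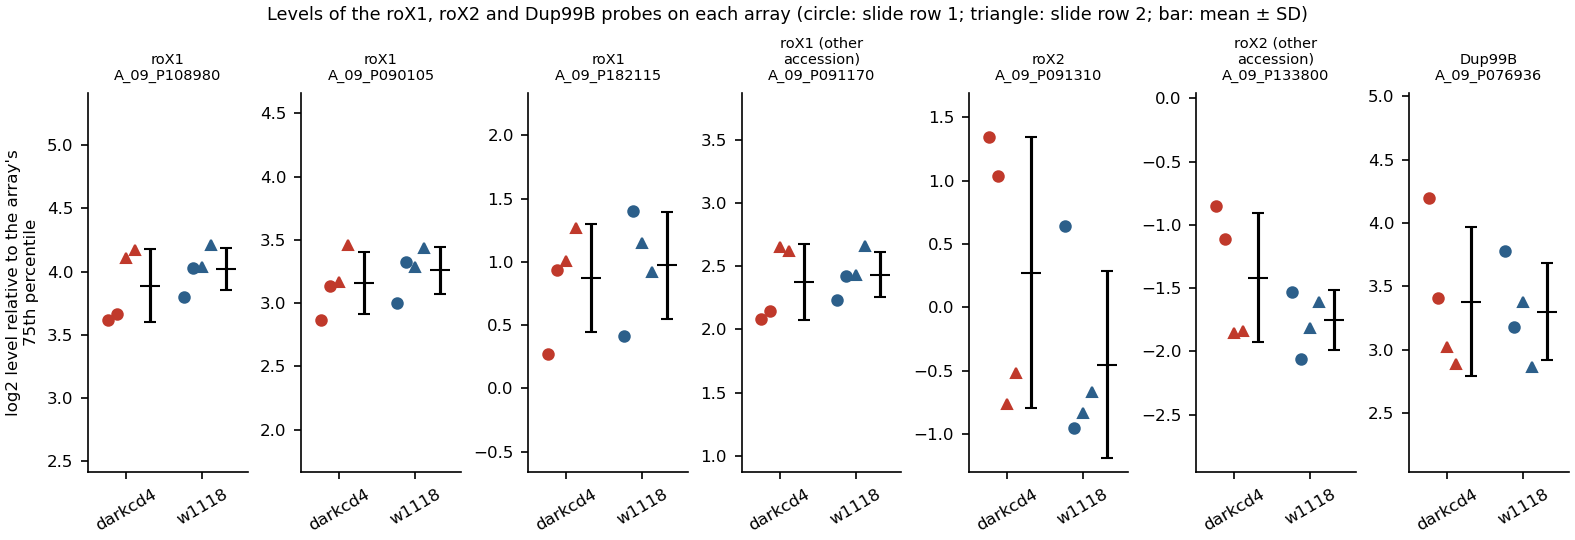
Log2 level of each roX1, roX2 and Dup99B probe relative to the array's 75th percentile (vertical axes, each spanning the same 3 log2 units), with darkcd4 arrays left of w1118 arrays, 1 point per array and the mean ± SD of 4 arrays beside each group. The groups overlap for all 7 probes, and darkcd4 1, darkcd4 2 and w1118 1 have the 3 highest roX2 levels and the 3 lowest levels of the brightest roX1 probe.

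The long noncoding RNA roX1 was among the brightest signals on every array by its brightest probe. That probe, A_09_P108980, stood at 3.61, 3.66, 4.11 and 4.17 on darkcd4 1 to 4, and at 3.80, 4.03, 4.04 and 4.21 on w1118 1 to 4. That put it above 96.5% to 97.9% of all fly probes on the darkcd4 arrays and above 97.2% to 98.1% on the w1118 arrays. The dimmest roX1 probe, A_09_P182115, lay above 78.0% to 88.0% over the 8 arrays. A percentile depends on how brightly the probe itself reads, so it compares arrays and not genes. The 3 lowest levels of A_09_P108980 were on darkcd4 1, darkcd4 2 and w1118 1, and the 2 genotypes overlapped.

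The level of roX1 did not pass the test between genotypes. The brightest probe averaged 3.89 ± 0.29 in darkcd4 and 4.02 ± 0.17 in w1118 (SD, n = 4 each), a difference of -0.13 ± 0.17 (SE; limma, adjusted p = 0.678 over all 24647 probes). The 95% confidence interval, -0.51 to 0.25, covers from 0.700-fold to 1.19-fold of the w1118 level. The other roX1 probes of the same accession gave -0.10 ± 0.16 for A_09_P090105 and -0.10 ± 0.26 for A_09_P182115 (limma, adjusted p = 0.724 and 0.842), and A_09_P091170, listed under NR_002097, gave -0.06 ± 0.17 (limma, adjusted p = 0.863). Within row 1 of the slide the brightest probe differed by -0.28 and within row 2 by 0.014, and neither passed (limma, adjusted p = 0.349 and 0.972).

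The roX1 probes gave a similar order of arrays, with 1 exception. Probe A_09_P090105 stood at 2.86, 3.13, 3.17 and 3.46 on darkcd4 1 to 4, and at 3.0, 3.32, 3.29 and 3.43 on w1118 1 to 4. Probe A_09_P091170 stood at 2.08, 2.15, 2.65 and 2.62 on darkcd4 1 to 4, and at 2.23, 2.42, 2.43 and 2.66 on w1118 1 to 4. In both, darkcd4 1, darkcd4 2 and w1118 1 were again the 3 lowest arrays, though in A_09_P090105 the step from darkcd4 2 to darkcd4 3 was within the spread of spots. Probe A_09_P182115 stood at 0.27, 0.94, 1.01 and 1.27 on darkcd4 1 to 4, and at 0.41, 1.41, 1.15 and 0.92 on w1118 1 to 4. It is the dimmest roX1 probe, and only darkcd4 1 and w1118 1 stood apart at the low end, with darkcd4 2 close to w1118 4.

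Over the 8 arrays, A_09_P108980 followed A_09_P091170 most closely, with Pearson r = 0.976 and Spearman rho = 0.976 (exact permutation, adjusted p = 7.44e-04 and 0.00238 over the 6 relations between roX1 probes that were computed). Leaving out darkcd4 1 and darkcd4 2, whose levels are farthest from the median, gave r = 0.950. With A_09_P090105 the brightest probe had r = 0.867 and rho = 0.857 (exact permutation, adjusted p = 0.0173 and 0.0321), and r = 0.862 without the same 2 arrays. For A_09_P090105 with A_09_P091170 r was 0.805 and rho 0.762 (exact permutation, adjusted p = 0.0398 and 0.0735), and r was 0.641 without darkcd4 1 and darkcd4 4. In each of these sets of 6 arrays, at least 1 probe had a gap of more than 0.4 of its range. The r over 6 arrays are therefore descriptive and no check on the relations. The slide rows hold 4 arrays each, too few for a correlation within a row. The values of A_09_P182115 fall into separate clusters of 2 and 6 arrays, so its relation to the others was computed over the 6 alone. There r lay between 0.046 and 0.373 and did not pass (exact permutation, unadjusted p between 0.426 and 0.925). Those 6 leave out darkcd4 1 and w1118 1, which were low in every roX1 probe. On them darkcd4 2 stood apart in A_09_P108980, at 3.66 with the rest between 4.03 and 4.21, and also in A_09_P091170. These r are therefore descriptive too, and cannot decide whether A_09_P182115 follows the other probes. The gap between any pair of roX1 probes did not differ between genotypes after adjustment over the 7 pairs of probes of the same gene compared. The smallest unadjusted p was for A_09_P108980 minus A_09_P091170, with a gap of 1.51 ± 0.04 in darkcd4 and 1.59 ± 0.03 in w1118 (SD, n = 4 each; exact permutation, two-sided p = 0.0286, the smallest this design allows, adjusted p = 0.200).

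The second noncoding RNA, roX2, was read at 2 distinct levels by its probe A_09_P091310. That probe stood at 1.34, 1.04, -0.76 and -0.52 on darkcd4 1 to 4, and at 0.64, -0.95, -0.83 and -0.67 on w1118 1 to 4. The arrays darkcd4 1, darkcd4 2 and w1118 1 were high and the other 5 were low, with no array between them, and each genotype had arrays on both sides. From the lowest to the highest array the level changed 4.92-fold, against 1.52-fold for the brightest roX1 probe. How far a gene varied depended on the probe, since the range was 2.31-fold for the second roX2 probe, A_09_P133800, and 2.20-fold for roX1 probe A_09_P182115. The probe lay above 67.3% to 87.1% of all fly probes on the darkcd4 arrays and above 65.1% to 81.5% on the w1118 arrays.

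For A_09_P091310 the same 3 arrays were high in the processed signal before any scaling between arrays. That signal was 644.7, 751.2, 304.2 and 257.9 on darkcd4 1 to 4, and 712.0, 285.7, 265.3 and 307.7 on w1118 1 to 4. The second roX2 probe, A_09_P133800, stood at -0.85, -1.11, -1.86 and -1.84 on darkcd4 1 to 4, and at -1.53, -2.06, -1.81 and -1.61 on w1118 1 to 4. It had the same 3 arrays on top, but w1118 1 was only slightly above w1118 4. Its unscaled signal was 140.6, 169.4, 142.4 and 103.2 on darkcd4 1 to 4, and 158.4, 132.8, 134.6 and 160.5 on w1118 1 to 4. Without scaling this dimmer probe therefore did not set the same 3 arrays apart. Within the spread of spots, darkcd4 1 was level with darkcd4 3, and w1118 1 with w1118 4. Since the values of A_09_P091310 fall into clusters of 3 and 5 arrays, no correlation of roX2 with any other RNA was computed over the 8 arrays as a test. The gap between the 2 roX2 probes was 1.69 ± 0.57 in darkcd4 and 1.30 ± 0.58 in w1118 (SD, n = 4 each; exact permutation, two-sided p = 0.257).

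The genotypes did not differ in roX2 beyond this spread. The level of A_09_P091310 averaged 0.27 ± 1.07 in darkcd4 and -0.45 ± 0.74 in w1118 (SD, n = 4 each), a difference of 0.73 ± 0.53 (SE; limma, adjusted p = 0.457). The 95% confidence interval of -0.47 to 1.93 runs from 0.721-fold to 3.80-fold of the w1118 level, and so includes changes of more than 2-fold. The second probe gave 0.33 ± 0.25 (SE; limma, adjusted p = 0.459). Within row 1 of the slide, where 3 of the 4 arrays were high, A_09_P091310 differed by 1.35, and within row 2, where all 4 were low, by 0.11 (limma, adjusted p = 0.157 and 0.785). The difference was 0.37 without darkcd4 1, 0.47 without darkcd4 2 and 1.09 without w1118 1 (limma, adjusted p = 0.794, 0.733 and 0.262). It was 0.18 over the 5 arrays without all 3 of these (limma, adjusted p = 0.557).

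Small structured RNAs, among them snRNAs of the spliceosome, snoRNAs and 7SL RNA, stood high on the same arrays as roX2. The mean level of the 12 that could be named was 1.92, 1.44, -0.66 and -0.27 on darkcd4 1 to 4, and 1.19, -0.60, -0.68 and -0.23 on w1118 1 to 4. None of the 12 passed the test between genotypes (limma, adjusted p under 0.05), against 1.89% of all probes tested, a share too small to set 12 RNAs apart. Their median difference was 0.68, against -0.02 over all probes tested. The smallest p among them were those of snRNA:U11, snoRNA:U3:54Aa and RNaseMRP:RNA, at 0.90 ± 0.57, 0.96 ± 0.67 and 0.74 ± 0.56 (SE; limma, adjusted p between 0.398 and 0.467). With this mean level as a covariate the roX2 difference was 0.15 ± 0.08 (SE; limma, adjusted p = 0.307). The part of these RNAs in the roX2 result was not tested further.

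Dup99B, the ejaculatory duct peptide, was also among the brightest signals on every array. Its probe A_09_P076936 stood at 4.20, 3.41, 3.02 and 2.89 on darkcd4 1 to 4, and at 3.78, 3.18, 3.37 and 2.86 on w1118 1 to 4. It lay above 95.4% to 97.4% of all fly probes on the darkcd4 arrays and above 95.4% to 97.1% on the w1118 arrays. The highest array was darkcd4 1, followed by w1118 1, while darkcd4 2 and w1118 3 were close to each other, so the values ran evenly and the genotypes overlapped. The change from the lowest to the highest array was 2.52-fold.

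The level of Dup99B averaged 3.38 ± 0.59 in darkcd4 and 3.30 ± 0.38 in w1118 (SD, n = 4 each). The difference of 0.08 ± 0.30 did not pass (SE; limma, adjusted p = 0.90), and its 95% confidence interval of -0.60 to 0.75 covers 0.662-fold to 1.69-fold of the w1118 level. The sign was not stable: the difference was 0.32 in row 1 of the slide and -0.16 in row 2, -0.19 without darkcd4 1 and -0.07 without w1118 4 (limma, adjusted p between 0.553 and 0.934), and -0.03 with quantile normalization (limma, adjusted p = 0.949).

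**Figure D2:**
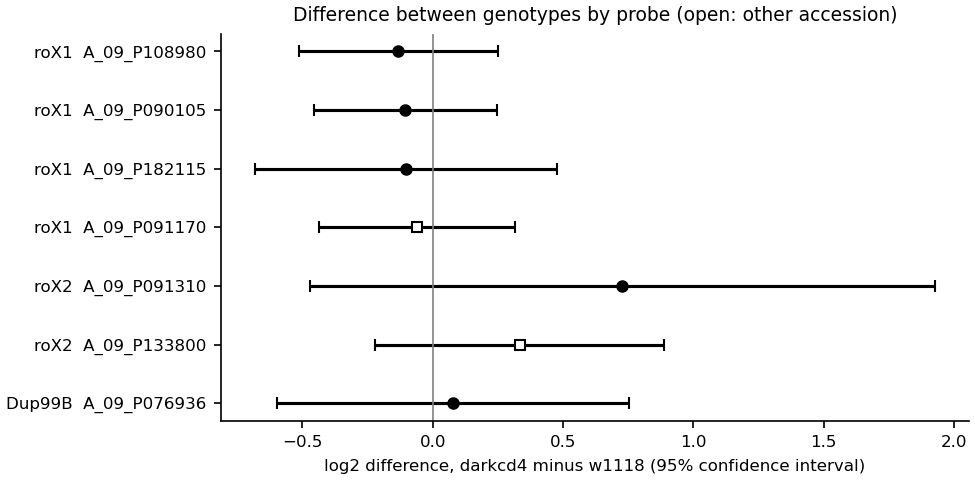
Log2 difference between genotypes, darkcd4 minus w1118, for each probe of roX1, roX2 and Dup99B (points, open for probes under another accession) with its 95% confidence interval from limma. Every interval includes 0, and that of roX2 probe A_09_P091310 is the widest, from -0.47 to 1.93.

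Across the 3 genes, 0 of the 5 probes chosen were called in the comparison of darkcd4 with w1118 (limma, adjusted p under 0.05), against 1.89% of all probes tested (1.14% higher and 0.742% lower in darkcd4), and 0 of 5 had an unadjusted p under 0.05, against 19.5%. The values of darkcd4 and w1118 did not overlap for 0 of the 5, against 11.1% of all probes tested. A two-sided exact permutation test of each probe alone gave p between 0.200 and 0.800, where 0.0286 is the smallest that 4 against 4 arrays allow. With counts this small, these shares do not set the genes apart from the rest of the array.

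The spread among arrays of the same genotype differed between probes, also between probes of 1 gene. The SD within genotype was 0.24 for the brightest roX1 probe, which is at or above that of 39.9% of all probes tested. It was 0.50 for Dup99B, at or above that of 84.3%, and 0.92 for roX2 probe A_09_P091310, at or above that of 98.5%. It was 0.40 for the other roX2 probe, A_09_P133800, and 0.42 for roX1 probe A_09_P182115, at or above 72.5% and 76.2% of probes, so the order of roX1 and roX2 in spread turns with the probe. The median over all probes tested was 0.28, and 95% of probes were at or under 0.69.

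**Figure D3:**
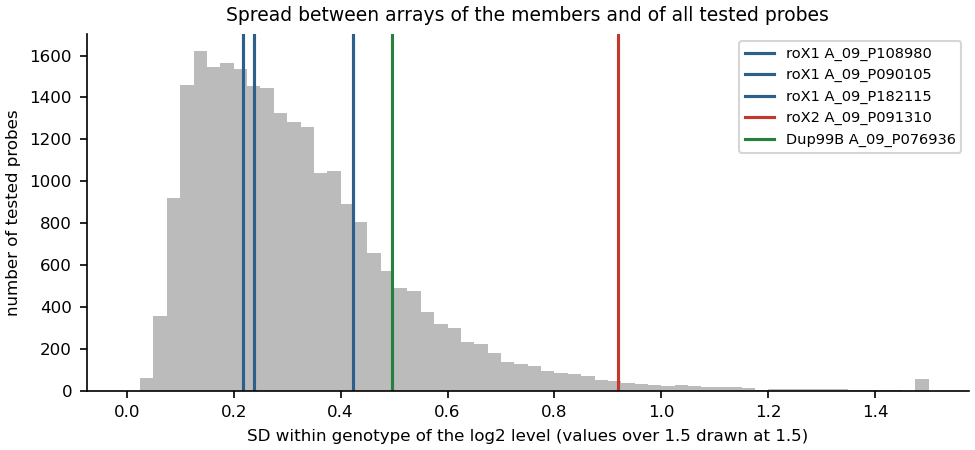
Number of tested probes (vertical axis) by the SD within genotype of the log2 level (horizontal axis), with vertical lines for the 5 chosen probes of roX1, roX2 and Dup99B. The roX1 probes lie between 0.22 and 0.42, Dup99B at 0.50 and roX2 at 0.92, in the upper tail of all probes.

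The levels were next compared across arrays, to see whether the 3 RNAs vary together. They did not all rise and fall together. Whether the share of males differed between samples was not tested. The 3 arrays high in roX2 were also the 3 highest in Dup99B, at 4.20 on darkcd4 1, 3.41 on darkcd4 2 and 3.78 on w1118 1, and the 3 lowest in roX1 by every roX1 probe except A_09_P182115. For Dup99B, however, darkcd4 2 was within the spread of spots of w1118 3, at 3.37. In roX1 probe A_09_P090105 the same held for darkcd4 2 and darkcd4 3, at 3.13 and 3.17. The scaled levels of roX1 and Dup99B ran in opposite order, with Pearson r = -0.880 and Spearman rho = -0.952 over the 8 arrays (exact permutation p = 0.00332 and 0.00114; of the 3 pairs of genes this was the 1 that could be computed, so the adjusted values are the same). These p-values do not allow for patterns that many targets share across the arrays. By likeness to roX1, Dup99B came in place 17634 of 19203 targets, and by likeness to Dup99B, roX1 came in place 18847. An r of -0.9 or lower was found for 6.13% of targets with roX1 and 1.09% with Dup99B. The opposite order is thus not particular to these genes. Without darkcd4 1 and darkcd4 2, the arrays with the most extreme roX1 levels, r was -0.976 over the other 6. On those 6, w1118 1 stood apart in roX1 at 3.80, with the rest between 4.03 and 4.21. That gap exceeds the limit set for pooling, so this r is descriptive and no check on the relation. With the 2 other roX1 probes for which it could be computed, A_09_P090105 and A_09_P091170, r was -0.913 and -0.895 (exact permutation p = 0.00159 and 0.00131).

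This relation belongs to levels that are scaled between arrays. In the unscaled processed signal the brightest roX1 probe and Dup99B had r = -0.061 and rho = -0.095 (exact permutation p = 0.881 and 0.840), a setting added after the data were seen. The unscaled signal also carries the overall brightness of each array, which was lowest on darkcd4 1. The unscaled Dup99B signal was 4658, 3885, 4181 and 2741 on darkcd4 1 to 4, and 6264, 5019, 4892 and 3554 on w1118 1 to 4. Scaled by quantile normalization, or centred on each array's median, the levels had r = -0.803 and -0.846 (exact permutation p = 0.0202 and 0.00794).

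Each row of the slide has 4 arrays, too few for a correlation of its own, and with the row's mean or the genotype's mean subtracted the values fell into separate clusters, so no r is given. In row 2 the brightest roX1 probe and A_09_P091170 were lowest on w1118 3, where Dup99B was highest. In the same row A_09_P090105 was lowest on darkcd4 3 and A_09_P182115 on w1118 4. Several of these steps are smaller than the 0.167 between spots. In row 1 the brightest roX1 probe was lowest on darkcd4 1 and darkcd4 2, which lay within the spread of spots, and highest on w1118 2. Dup99B was highest there on darkcd4 1 and lowest on w1118 2.

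Both roX RNAs belong to the same complex, and their levels were closest on the arrays high in roX2. The brightest roX1 probe exceeded roX2 probe A_09_P091310 by 2.27, 2.63, 4.87 and 4.69 on darkcd4 1 to 4, and by 3.16, 4.98, 4.87 and 4.88 on w1118 1 to 4. The gap depends on how brightly each probe reads, so only its change between arrays is meaningful, and that change does not depend on scaling by a single factor per array. It was narrow on darkcd4 1, darkcd4 2 and w1118 1 and nearly level on the other 5. The gap averaged 3.61 ± 1.36 in darkcd4 and 4.47 ± 0.88 in w1118 (SD, n = 4 each; exact permutation, two-sided p = 0.200, adjusted p = 0.300 over the 3 pairs of genes).

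The gap of roX1 over Dup99B was 0.51 ± 0.85 in darkcd4 and 0.72 ± 0.55 in w1118 (SD, n = 4 each; exact permutation, two-sided p = 0.714, adjusted p = 0.714). It ranged over 1.93 log2 units between arrays, from -0.58 on darkcd4 1 to 1.35 on w1118 4. The gap of roX2 over Dup99B was -3.10 ± 0.62 in darkcd4 and -3.75 ± 0.51 in w1118 (SD, n = 4 each; exact permutation, two-sided p = 0.143, adjusted p = 0.300). It ranged over 1.83 log2 units. None of the 3 differences in these gaps between genotypes passed the test.

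**Figure D4:**
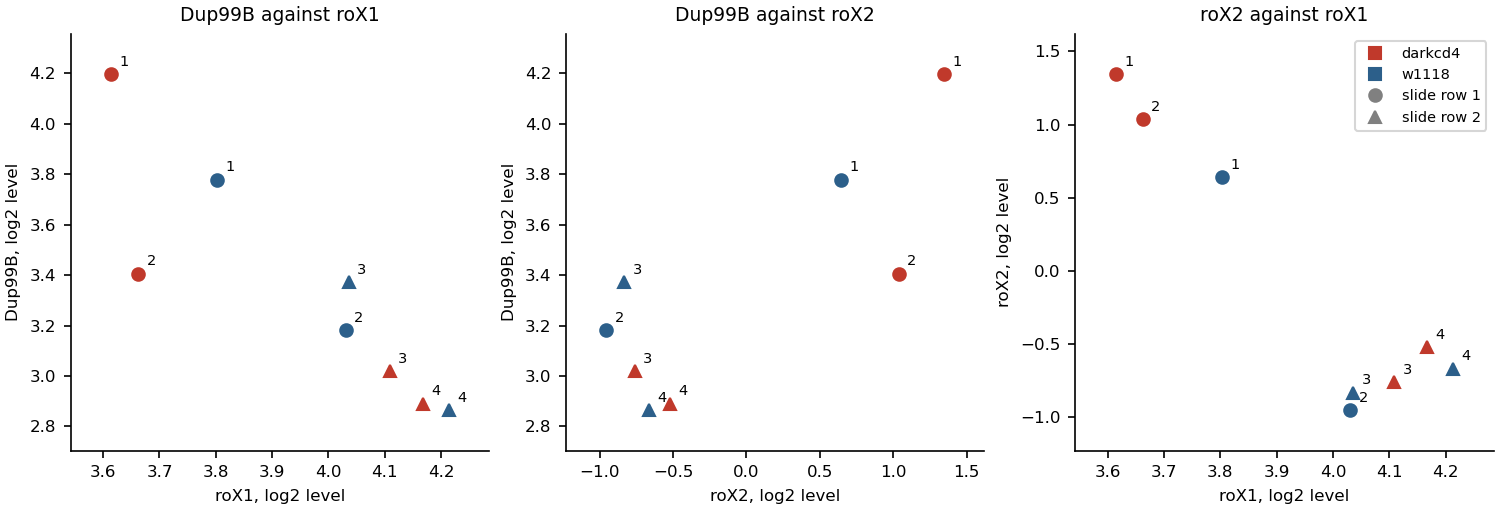
Log2 levels of the brightest probe of each gene plotted against each other, 1 point per array with its replicate number, red for darkcd4 and blue for w1118, circles for slide row 1 and triangles for row 2. Dup99B falls as roX1 rises (r = -0.880), and roX2 is above 0.6 on darkcd4 1, darkcd4 2 and w1118 1 and below -0.5 on the other 5 arrays.

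The named targets with the array-to-array pattern most like each RNA are given next. Likeness was measured by Pearson r over the 8 arrays against the brightest probe of each of 19203 other targets, and 265 of these have a gene symbol here. Only those 265 could be named, and most of the closest targets have no symbol: the 5 named ones came in places 16 to 298 of 19203 for roX1, 2 to 38 for roX2 and 18 to 205 for Dup99B. These values describe the arrays, which all targets share, and carry no test. They are pooled over all 8 arrays also for roX2, so those of roX2 largely reflect its split into 3 high and 5 low arrays. For roX1 the closest named targets were Pka-R2, a regulatory subunit of protein kinase A (r = 0.988), Usp47, a ubiquitin protease (0.982), CG31140 (0.974), Gfrl, a receptor-like protein (0.968), and ptc, the Hedgehog receptor Patched (0.959). Pka-R2, the closest of them, stood at -1.27, -1.24, -0.78 and -0.69 on darkcd4 1 to 4, and at -1.06, -0.81, -0.73 and -0.64 on w1118 1 to 4, low on the same 3 arrays as roX1.

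For roX2 they were RNaseMRP:RNA, the RNA of a ribosomal RNA processing enzyme (r = 0.997), RpL23, a ribosomal protein (0.994), snoRNA:Psi28S-2566, a guide for ribosomal RNA modification (0.993), 7SLRNA:CR32864, the RNA of the signal recognition particle (0.990), and RFeSP, the iron-sulfur protein of respiratory complex III (0.989). RNaseMRP:RNA stood at 3.41, 3.11, 1.34 and 1.34 on darkcd4 1 to 4, and at 2.70, 1.06, 1.12 and 1.36 on w1118 1 to 4. Of these 5, 3 are small structured RNAs and 2 encode proteins, and all were high on darkcd4 1, darkcd4 2 and w1118 1.

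For Dup99B the closest named targets were CG9672 (r = 0.951), Cpr60D, a cuticle protein (0.925), Sdhaf3, an assembly factor of succinate dehydrogenase (0.912), mRpL52, a mitochondrial ribosomal protein (0.906), and Polr2J, an RNA polymerase II subunit (0.904). CG9672 stood at 1.74, 1.15, 0.81 and 0.36 on darkcd4 1 to 4, and at 1.73, 0.70, 0.95 and 0.53 on w1118 1 to 4. As with Dup99B, darkcd4 1 and w1118 1 were its highest arrays. None of the 15 named targets passed the test between genotypes (limma, adjusted p between 0.432 and 0.998), against 1.89% of all probes tested. They were picked for likeness to RNAs that did not pass, so this count carries no result of its own.

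Many other targets followed patterns like those of the roX RNAs, and fewer were counted for Dup99B. An r of at least 0.9 was reached by 1559 of 19203 targets with roX1 (8.12%), by 1810 with roX2 (9.43%) and by 248 with Dup99B (1.29%). An r of -0.9 or lower was found for 1178 targets with roX1 (6.13%), 1962 with roX2 (10.2%) and 209 with Dup99B (1.09%). Ordered by likeness to roX1, roX2 came in place 18484 and Dup99B in place 17634 of 19203, near the end of the list. Ordered by likeness to Dup99B, roX2 came in place 1553 and roX1 in place 18847.

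**Figure D5:**
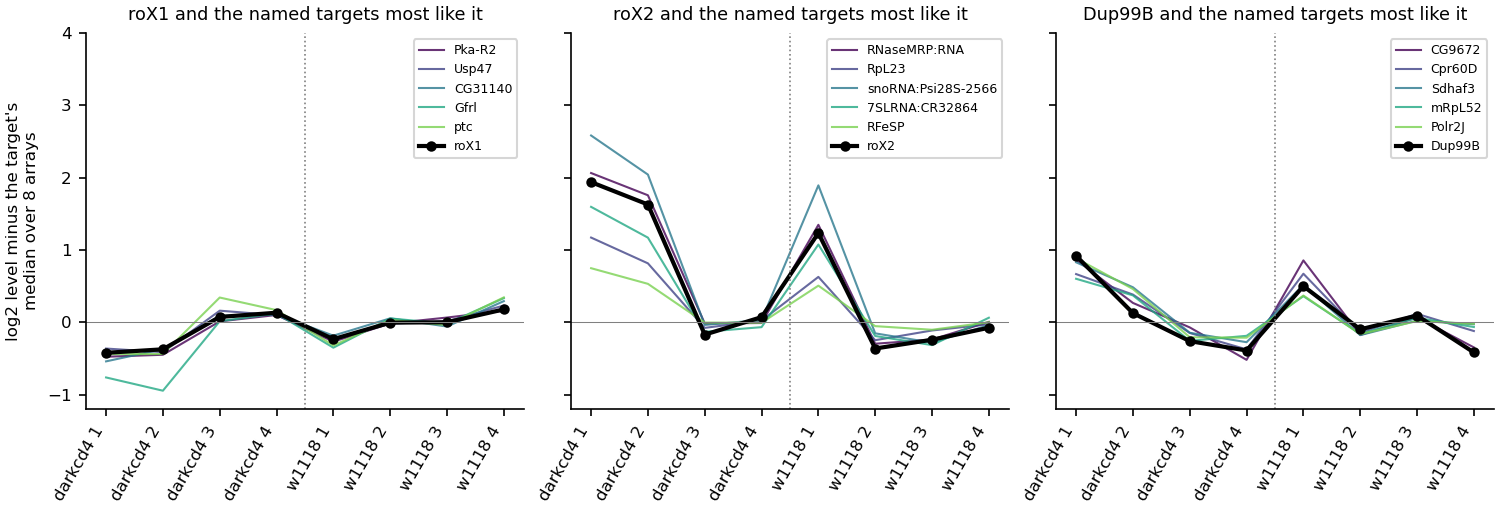
Log2 level on each array minus the target's own median over the 8 arrays, for roX1, roX2 and Dup99B (black, points) and the 5 named targets most like each (coloured lines), darkcd4 arrays left of the dotted line and w1118 arrays right of it. The roX1 group dips on darkcd4 1, darkcd4 2 and w1118 1, where the roX2 group stands high, and each line of the Dup99B group is higher on darkcd4 1 and w1118 1 than on replicates 3 and 4 of either genotype.

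The other genes of these pathways could not be read by name. Of 13 genes listed for the dosage compensation complex, 45 for seminal fluid and the ejaculatory duct, 41 for testis and sperm and 32 for yolk, eggshell and ovary, 0 could be matched to a probe, because most probes carry transcript numbers for which the gene table in use gives no symbol. No male or female marker beyond the 3 RNAs described here could therefore be read, and the sex make-up of each sample was not measured. The whole-body label could not be checked further against female or male markers.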

How the data were processed

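The members and gene lists were chosen with earlier results of these data known. Per the file headers, the authors' scanner files were written by Agilent's Feature Extraction (10.7.3.1) and give linear intensity values. Their processed signal is background-subtracted and detrended but not normalized between arrays. The deposited flags per spot (outlier, saturated, well above background) are 0 or 1. The deposited table of the series holds log2 values, which followed the levels used here once these were centred on each probe's median over arrays (24647 probes). Its column medians were 0.050, 0.027, -0.014 and 0.033 for darkcd4 1 to 4 and -0.040, -0.012, 0.0086 and -0.012 for w1118 1 to 4. Other steps behind it were not given in the sources used here.

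Of 32242 probes that are not controls, 80 meant for added bacterial RNAs were left out. Outlier spots were dropped, and the spots of a probe averaged on the log2 scale after subtracting the array's 75th percentile. To enter, a probe had to read well above background on 4 or more of the 8 arrays, which left 24647. Each was fitted separately with limma 3.58.1 (lmFit, eBayes with trend) in R 4.3.3, p-values were adjusted by Benjamini and Hochberg's method and called under 0.05, and the procedure was tested on simulated data. A single value was compared by a two-sided exact permutation test, and correlations by exact permutation of pairings, with none pooled where the largest gap between sorted values exceeded 0.4 of their range. This rule was not applied again to sets of 6 arrays, and not at all to the likeness of other targets. Names came from a RefSeq table of the Release 6 assembly, by accession, symbol or cDNA clone name, for 384 of 32162 fly probes. The array's own build is dm3, and coordinates are left out for that reason. Named were all probes of the members, up to 4 members of each list with the smallest p, and for each member the 5 targets with a symbol most like it, each read by its brightest probe. Python 3.11.15, scipy 1.17.1 and matplotlib 3.10.9 were used. The alternatives covered background correction, normalization, filters, probe choice, slide row, the replicate number as a block, array weights, a covariate and leaving out arrays.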

Additional observations from a re-analysis of the deposited data

Results flagged for a closer look

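Of 18 groups of 4 arrays checked for an array far from the others (the 7 probes, the level of small structured RNAs and the array's 75th percentile, each in darkcd4 and in w1118), 0 exceeded Dixon's critical value for groups of 4, where chance flags about 1 group in 20. This check seeks a single array apart. It cannot flag a split such as that of roX2 probe A_09_P091310 in darkcd4, at 1.34 and 1.04 against -0.76 and -0.52.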

How the results depend on the processing

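None of the 7 probes was called in any of the alternatives (171 values; limma, lowest adjusted p = 0.104, for roX2 probe A_09_P133800 in slide row 1). Of 123 values for the 5 chosen probes, 108 kept their sign. For roX1, A_09_P108980 turned to 0.014 in slide row 2 alone, 0.0033 with the small structured RNA level as a covariate and 0.045 over the 5 arrays without w1118 1, darkcd4 1 and darkcd4 2, and lay between -0.23 and -0.04 leaving out 1 array. A_09_P090105 turned to 0.0016 with the covariate and lay between -0.21 and -0.0076 leaving out 1 array. A_09_P182115 turned to 0.10 in row 2 and 0.12 with the covariate, and lay between -0.29 and 0.10 leaving out 1 array. A_09_P091170 turned to 0.092 in row 2, 0.079 with the covariate and 0.13 over the 5 arrays, and lay between -0.15 and 0.038 leaving out 1 array. For roX2, A_09_P091310 kept its sign in all 25 alternatives, between 0.11 and 1.35, and between 0.37 and 1.09 leaving out 1 array. A_09_P133800 turned to -0.14 in row 2 and -0.023 over the 5 arrays. Dup99B turned to -0.052 with normexp and quantile normalization, -0.033 with quantile normalization, -0.16 in row 2, -0.18 with the covariate and -0.18 over the 5 arrays, and lay between -0.19 and 0.24 leaving out 1 array. The cause of these turns was not tested.

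Of all probes tested, 465 were called (282 higher, 183 lower in darkcd4). The count was 1154 with the replicate number as a block, 1759 with the slide row as a block, 205 in row 2 alone, 1238 with array weights and 1917 with the covariate. It was 238, 189 and 2607 without darkcd4 1, 2 and 3, and 304, 194, 160 and 222 without w1118 1 to 4. With the replicate block, roX1, roX2 and Dup99B had adjusted p = 0.537, 0.174 and 0.765 for their brightest probes (limma), and no call changed. The 95% confidence interval of A_09_P091310 then excluded 0, at 0.019 to 1.44 (limma, unadjusted p = 0.0455). In slide row 1 alone it was 0.10 to 2.59, and that of A_09_P133800 was 0.23 to 1.39 (limma, unadjusted p = 0.0381 and 0.0146). In the other alternatives the intervals of both roX2 probes included 0. Whether the replicate numbers pair the samples could not be told from these values. Deviations of arrays with the same number correlated at 0.669, -0.101, 0.285 and 0.299, and darkcd4 2, 3 and 4 each correlated best with another number. Both darkcd4 1 and darkcd4 2 correlated best with w1118 1, at 0.669 and 0.548. These are the arrays that stood together in roX2, and a pattern they share can hide a pairing.

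The correlation of roX1 with Dup99B was -0.99 to -0.86 leaving out 1 array (added after seeing the data), and not computed without darkcd4 1, w1118 1 or w1118 4, or with A_09_P182115, because values then fell into clusters. With no scaling between arrays it was -0.061. The planned mean spot signal is not a column of these files, so normexp used the median signal.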
